A study of Mus musculus with 6 samples.

Results

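The BCL2 family decides whether a cell keeps or loses the integrity of its mitochondrial outer membrane, and 10 of its genes are described here in ileal epithelium with and without Ogt. The members were taken by Ensembl ID through their mouse symbols: Bcl2, Bcl2l1 (BCL-XL) and Mcl1, which favour survival; Bax and Bak1, the effectors; and Bid, Bad, Bcl2l11 (BIM), Bbc3 (PUMA) and Pmaip1 (NOXA), the BH3-only genes. All 10 were found among the 22274 genes of the deposited table, and all 10 had enough counts to be among the 14005 genes tested.

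The series holds 3 control and 3 Ogt knockout libraries of RNA from isolated ileal epithelial cells of mice. The controls carried floxed Ogt (genotype LoxP), and no driver is given for them. The knockout libraries came from floxed Ogt combined with Olfm4-CreER, a recombinase that is switched on by tamoxifen in crypt stem cells and passes the deletion to their progeny. Offspring aged 2 months received tamoxifen on 3 days in a row, with collection on day 10, and both groups share the floxed alleles. The labels do not say whether the controls received tamoxifen too, so exposure to it may also differ between the groups. Effects of the driver cannot be told apart from those of losing Ogt, which encodes the O-GlcNAc transferase, an enzyme that modifies nuclear and cytoplasmic proteins. The labels do not say whether each library is a separate animal, and p-values therefore reflect only the variation among these libraries, which may be technical.

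As background, survival proteins of the family hold the effectors BAX and BAK in check, and BH3-only proteins, which cells produce or activate under stress, bind the survival proteins or engage the effectors directly. Once BAX or BAK permeabilise the outer membrane, cytochrome c leaves the mitochondria and caspases are activated. In the intestine, epithelial cells are renewed from crypts and lost at villus tips, and the family has been studied as a control of death among crypt cells after damage.

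Library totals lay between 14389429 and 18076479 estimated counts. Ogt stood at 140, 127 and 128 CPM (counts scaled to library size, with TMM factors between libraries) in controls 1 to 3 and at 48.5, 43.0 and 36.0 CPM in knockouts 1 to 3, a log2 fold change of -1.63 ± 0.13 (± SE here and below; adjusted p = 0.00121, edgeR quasi-likelihood test, Benjamini-Hochberg over all tested genes). Epithelial genes were abundant in all libraries, with a summed level of 10 of them between 16510 and 22770 CPM, and all 6 listed genes of the ileum were measured. Genes of other cells were present as well: 16 markers of T cells and intraepithelial lymphocytes summed to between 269 and 507 CPM in control and between 284 and 467 CPM in knockout libraries. Control 2 had the lowest proliferation sum (466 CPM, against 743 to 1052 CPM in the 5 other libraries) and the highest T cell sum. Control 1 differed from controls 2 and 3 in other lists, with goblet genes at 16200 CPM against 8656 and 6920 CPM. Its absorptive enterocyte genes summed to 29050 CPM, against 39680 and 40180 CPM. By mean chi-square per gene, controls 2 and 3 were closest to each other (33.8), against 78.1 and 59.6 for control 1 with each of them.

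Of the 10 members 4 fell in the knockout libraries and none rose. Both abundant survival genes, Bcl2l1 and Mcl1, were among the 4, together with 2 BH3-only genes, Pmaip1 and Bcl2l11. Neither effector passed the test. Among all tested genes 18.7% passed, 9.37% as lower and 9.33% as higher in knockout. The median log2 fold change was -0.37 over the 10 members and -0.05 over all tested genes. Levels of the groups did not overlap for 7 members, 5 lower and 2 higher in knockout, where 39.8% of all tested genes did not overlap (20.2% lower and 19.6% higher). With 1 library left out, 2 members were called without control 2, control 3 or knockout 2. Without control 1 or knockout 1 the number was 3, and without knockout 3 it was 1. In RNA from a mixture of cells, fewer cells of a type and less RNA per cell cannot be told apart.

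**Figure D1:**
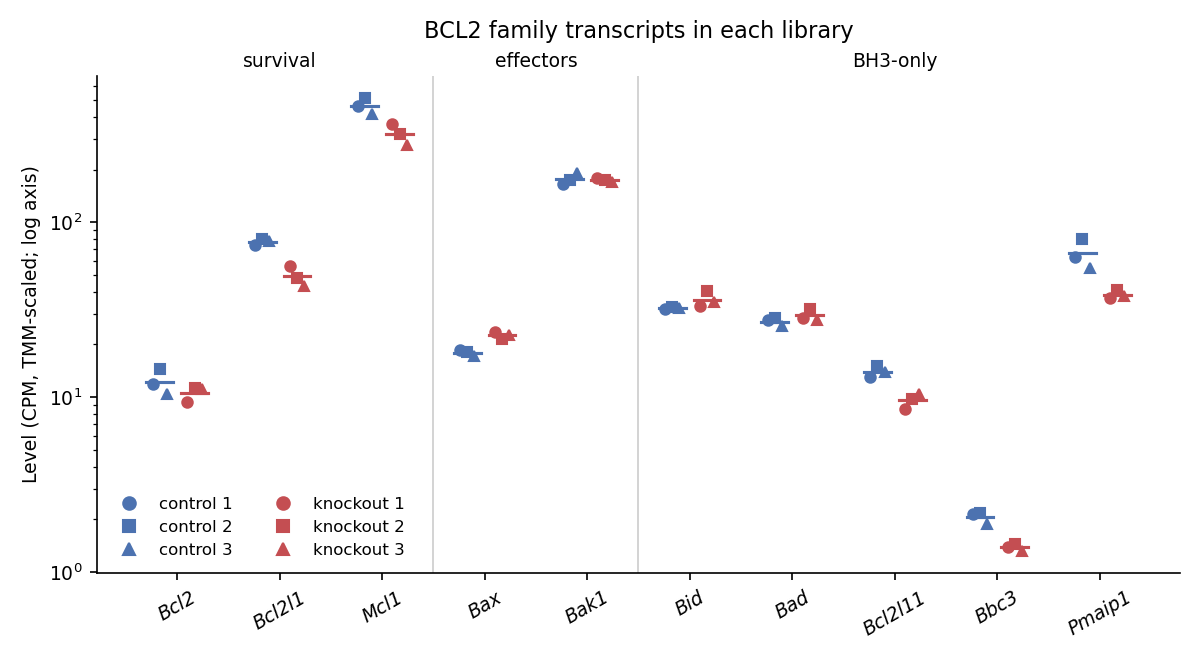
Level of each member in each library (y axis, CPM on a log scale), with controls in blue, knockouts in red, one symbol shape per replicate number and a bar at the group mean. For Bcl2l1, Mcl1, Bcl2l11, Bbc3 and Pmaip1 every knockout point lies below every control point, and for Bax and Bid every knockout point lies above.

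**Figure D2:**
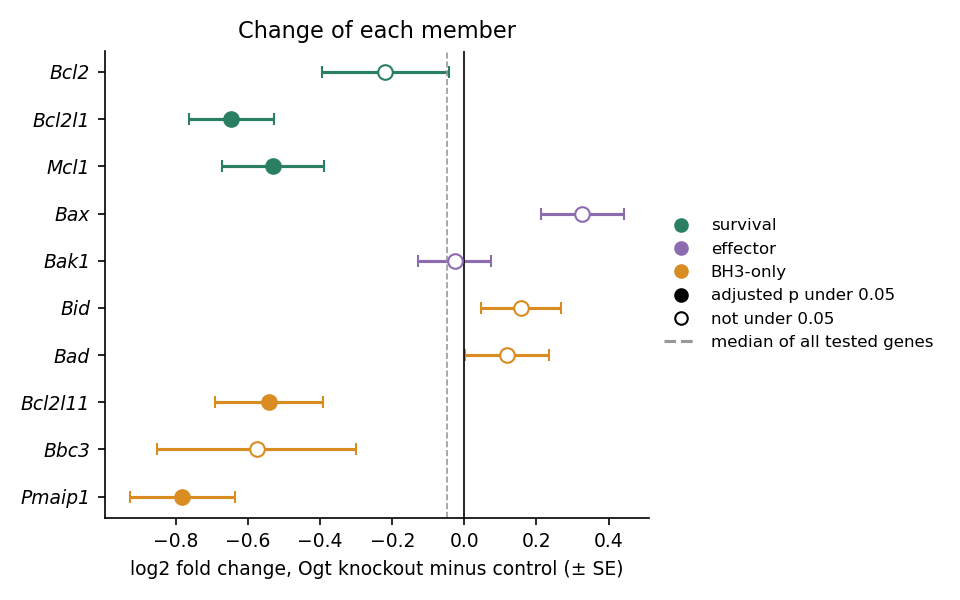
Log2 fold change of each member, knockout minus control (x axis, bars ± SE), coloured by class and filled where the adjusted p was under 0.05. The 4 filled points, Bcl2l1, Mcl1, Bcl2l11 and Pmaip1, lie between -0.53 and -0.78, and the dashed line marks the median of all tested genes at -0.05.

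The regulatory sequence upstream of the genes that fell is shown here because these genes fell in the same comparison. RefSeq promoter entries (build GRCm38.p6, an older build than the GRCm39 of the deposited table) matched 9 of the 10 members, all but Pmaip1, with 15 annotated starts. The 250 bases before the most upstream start are printed 5′ to 3′ on the gene's strand for Bcl2l1 (chr2:152831729-152831978, minus strand), Mcl1 (chr3:95658471-95658720, plus strand) and Bcl2l11 (chr2:128125788-128126037, plus strand). Capitals mark matches to any of the 9 motifs searched on both strands.
Bcl2l1: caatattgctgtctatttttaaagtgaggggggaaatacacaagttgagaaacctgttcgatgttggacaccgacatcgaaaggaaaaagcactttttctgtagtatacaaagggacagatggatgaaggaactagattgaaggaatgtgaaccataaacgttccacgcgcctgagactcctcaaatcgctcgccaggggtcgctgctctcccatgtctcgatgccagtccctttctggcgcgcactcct
Mcl1: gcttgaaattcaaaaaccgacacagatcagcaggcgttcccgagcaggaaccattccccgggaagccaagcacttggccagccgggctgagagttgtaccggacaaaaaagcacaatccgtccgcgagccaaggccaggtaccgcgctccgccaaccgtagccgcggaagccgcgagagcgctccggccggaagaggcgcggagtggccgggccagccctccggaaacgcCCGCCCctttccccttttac
Bcl2l11: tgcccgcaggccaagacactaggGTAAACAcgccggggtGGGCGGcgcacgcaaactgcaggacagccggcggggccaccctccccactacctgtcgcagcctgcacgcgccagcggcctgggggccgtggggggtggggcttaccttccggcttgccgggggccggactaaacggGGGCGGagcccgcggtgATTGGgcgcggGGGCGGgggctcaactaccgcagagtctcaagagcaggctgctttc

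The motifs were the FOXO site GTAAACA, the E-box CACGTG, the cAMP response element TGACGTCA, the STAT site TTCNNNGAA, the E2F site TTTCCCGC, the ATF4 composite site TGATGNAAT, the ETS site CCGGAAGT, the CCAAT box CCAAT and the GC box GGGCGG. No pair of matches in the printed windows overlapped. The Bcl2l11 window held 3 GC boxes, a CCAAT box and, from 227 to 221 bases before the start, a FOXO letter match. The Mcl1 window held 1 GC box, from 20 to 15 bases before the start, and the Bcl2l1 window held none of the motifs. The windows also differed in base composition, with 47.6% G and C for Bcl2l1, 64.4% for Mcl1 and 72% for Bcl2l11. Across the 32851 RefSeq windows of this length, 32.7% held a GC box, 33.8% a CCAAT box and 3.17% the FOXO letters. Of the 15 member windows 10 held a GC box, 4 a CCAAT box and 2 the FOXO letters, the other being at the second start of Bbc3. The shares over all windows were 6.02% for the E-box, 7.02% for the STAT site, 2.88% for the ETS site, 1.55% for the cAMP response element, 0.895% for the E2F site and 0.816% for the ATF4 site. The E-box was found in 2 member windows, at Bax and at the third start of Bbc3, and the other motifs of this group in 0. A match describes letters only and is not a measured binding site.

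Among the survival genes, Bcl2l1 and Mcl1 fell and Bcl2 did not pass the test. Bcl2l1 encodes BCL-XL, which binds BAX, BAK and several BH3-only proteins. Its level was 73.7, 79.8 and 77.7 CPM in controls 1 to 3 and 56.5, 48.3 and 43.0 CPM in knockouts 1 to 3. The highest knockout library stayed well below the lowest control. The log2 fold change was -0.65 ± 0.12 (edgeR adjusted p = 0.0105), and the level fell by 36.1%. This call held in all 16 alternative settings, including each library left out in turn (adjusted p up to 0.0478).

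Mcl1 encodes a short-lived survival protein that binds BAK and NOXA, and was the most abundant member per length in the controls. It stood at 462, 512 and 418 CPM in the controls and at 365, 322 and 276 CPM in the knockouts, so that the groups were separated by the gap between control 3 and knockout 1. The log2 fold change was -0.53 ± 0.14 (edgeR adjusted p = 0.0354), and the level fell by 30.8%. Without control 2 or 3 or knockout 2 or 3 the Mcl1 call was lost (adjusted p = 0.104, 0.0592, 0.112 and 0.127), as it was with library size alone as the scaling (-0.40, adjusted p = 0.0575). It was also lost on the deposited FPKM values (expression per transcript length and library size), with pseudocounts of 0.1 and 1 (limma adjusted p = 0.0585 and 0.0576).

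Bcl2, the founding member of the family, was low in this tissue. It stood at 11.9, 14.5 and 10.4 CPM in the controls and at 9.33, 11.2 and 11.1 CPM in the knockouts. The groups overlapped, and the log2 fold change of -0.22 ± 0.18 did not pass the test (edgeR adjusted p = 0.418). Per length, Bcl2 made up 0.997% of the summed FPKM (the deposited expression value per transcript length and library size) of the 3 survival genes in control and 1.30% in knockout libraries. Mcl1 made up 78.8% and 80.7% of that sum, and Bcl2l1 20.3% and 17.99%.

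Neither effector passed the test, and their levels differed in pattern. Bax, which moves to mitochondria when activated, stood at 18.6, 18.1 and 17.2 CPM in the controls and at 23.4, 21.6 and 22.6 CPM in the knockouts. Every knockout library was above every control, with a log2 fold change of 0.33 ± 0.12 that did not pass the test (edgeR adjusted p = 0.0864). Bax passed with library size alone (0.46, adjusted p = 0.0324) and on the FPKM scale with a pseudocount of 0.1 (0.47, limma adjusted p = 0.0167). Bak1, which resides in the outer membrane, stood at 166, 174 and 192 CPM in the controls and at 178, 174 and 170 CPM in the knockouts. These ranges overlapped almost fully, and the log2 fold change was -0.03 ± 0.10 (edgeR adjusted p = 0.871). Its sign is not settled: it was 0.11 with library size alone, 0.15 on the log2(FPKM + 0.1) scale, 0.14 on the log2(FPKM + 1) scale and 0.07 without control 3.

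The BH3-only genes split into Pmaip1 and Bcl2l11, which fell, and Bid, Bad and Bbc3, which did not pass the test. Pmaip1 encodes NOXA, which binds MCL1 and promotes its degradation. It stood at 63.7, 80.6 and 54.9 CPM in the controls and at 37.0, 41.1 and 37.8 CPM in the knockouts. Control 2 lay above the other controls, and the knockouts lay close together below all 3. The log2 fold change was -0.78 ± 0.15 (edgeR adjusted p = 0.0110), the largest of the 10 members in size. Without knockout 3 the Pmaip1 call was lost (adjusted p = 0.0544), and without control 2 the log2 fold change was -0.59 with the call kept (adjusted p = 0.0272).

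Bcl2l11 encodes BIM, which binds all the survival proteins and can activate the effectors. It stood at 13.1, 14.98 and 13.9 CPM in the controls and at 8.57, 9.72 and 10.5 CPM in the knockouts, with no overlap. The log2 fold change was -0.54 ± 0.15 (edgeR adjusted p = 0.0402), and the level fell by 31.3%. This call was the least secure of the 4. It was lost without any 1 of the 6 libraries (adjusted p from 0.0539 without control 1 to 0.140 without control 2), with library size alone (-0.40, adjusted p = 0.116) and without a count filter (adjusted p = 0.0512). The call was also lost on the FPKM scale with pseudocounts of 0.1 and 1 (limma adjusted p = 0.173 and 0.168).

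Bbc3 encodes PUMA, a p53 target that binds all the survival proteins. It had only 35, 36 and 32 counts in the controls and 20, 26 and 25 in the knockouts, or 2.13, 2.18 and 1.88 CPM against 1.38, 1.44 and 1.32 CPM. The groups did not overlap in CPM. The log2 fold change of -0.58 ± 0.28 was as large as that of Bcl2l11 but did not pass the test (edgeR adjusted p = 0.182). On the log2(FPKM + 0.1) scale its sign turned, to 0.07 (limma adjusted p = 0.881), where the deposited FPKM values were 1.15, 1.13 and 1.26 in the controls and 1.43, 0.84 and 1.58 in the knockouts.

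Bid, which caspase-8 cleaves to link death receptors to mitochondria, stood at 32.1, 32.9 and 32.4 CPM in the controls and at 33.3, 40.3 and 34.9 CPM in the knockouts. The knockouts lay just above the controls, and the log2 fold change of 0.16 ± 0.11 did not pass the test (edgeR adjusted p = 0.361). Bad, whose protein is kept inactive by phosphorylation and binding to 14-3-3 proteins, stood at 27.6, 28.2 and 25.4 CPM in the controls and at 28.3, 32.1 and 27.8 CPM in the knockouts. The groups overlapped, with a log2 fold change of 0.12 ± 0.12 (edgeR adjusted p = 0.514). Some estimated counts of Bid, Bad and Bak1 were not whole, in 4, 5 and 1 of the 6 libraries, and the cause was not tested.

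Per length, the order of the members differed between the groups. In control libraries Mcl1 was highest (129.5 ± 13.4 FPKM, mean ± SD, n = 3), followed by Bak1 (93.7 ± 12.9), Bcl2l1 (33.1 ± 1.21), Bad (28.1 ± 1.78), Pmaip1 (23.5 ± 4.79), Bax (19.4 ± 1.21) and Bid (14.1 ± 0.231). Bcl2l11 (2.98 ± 0.212 FPKM), Bcl2 (1.65 ± 0.285) and Bbc3 (1.18 ± 0.0700) were far lower. Neighbours whose control ranges overlapped were Bad with Pmaip1 and Pmaip1 with Bax. In knockout libraries Bak1 came first (103 ± 4.81 FPKM) with Mcl1 (98.2 ± 9.89) inside its range. Bad (34.9 ± 3.49 FPKM) and Bax (26.8 ± 0.770) then stood above Bcl2l1 (21.8 ± 1.46). Bid (17.2 ± 2.10 FPKM) overlapped with Pmaip1 (14.8 ± 1.10), and Bcl2l11 (2.30 ± 0.243) stood above Bcl2 (1.56 ± 0.210), which overlapped with Bbc3 (1.28 ± 0.391). Mcl1 exceeded 95.2% of the tested genes in mean FPKM, Bak1 94.4%, and Bbc3 18.9%.

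The balance between opposing members can be read as a ratio within each library, where the scaling between libraries cancels. It does not cancel for the sums below, which are of FPKM values without TMM factors. Bcl2l1 over Bax was 1.57, 1.77 and 1.81 in the controls and 0.875, 0.837 and 0.735 in the knockouts, as a ratio of FPKM values. Per length, Bcl2l1 was thus the more abundant of the pair in every control and Bax in every knockout. The mean ratio fell by 52.5%. From CPM, which are not divided by length, the ratio was 3.97, 4.401 and 4.52 in the controls and 2.41, 2.24 and 1.90 in the knockouts, a fall of 49.2% without a crossing of 1. As a ratio of FPKM values, Mcl1 over Bak1 was 1.57, 1.60 and 1.06 in the controls and 1.10, 0.959 and 0.815 in the knockouts. On this scale control 3 and knockout 1 overlapped. From CPM the ratio was 2.79, 2.94 and 2.18 in the controls and 2.05, 1.855 and 1.63 in the knockouts, without overlap. The 3 survival genes summed to 166, 178 and 149 FPKM in the controls and to 132, 123 and 110 FPKM in the knockouts, without overlap. The effector sum was 105, 108 and 127 FPKM in the controls and 125, 130 and 135 FPKM in the knockouts, with overlap. Their ratio was 1.59, 1.65 and 1.18 in the controls and 1.06, 0.947 and 0.811 in the knockouts.

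The BH3-only genes summed to nearly the same level in both groups, at 69.9 ± 6.55 FPKM in control and 70.6 ± 6.04 FPKM in knockout libraries (n = 3 each), but with a different make-up. Pmaip1 made up 33.1%, 37.3% and 29.9% of that sum in the controls and 20.9%, 20.5% and 21.8% in the knockouts. Bad made up 40.9%, 38.7% and 41.3% in the controls and 50.8%, 50.4% and 47.2% in the knockouts. Mcl1 over Pmaip1, which encode a binding pair, was 5.71, 4.96 and 6.07 in the controls and 7.87, 6.28 and 5.84 in the knockouts, so that their ratio overlapped between the groups while both genes fell. These sums and ratios are descriptions and were not tested.

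**Figure D3:**
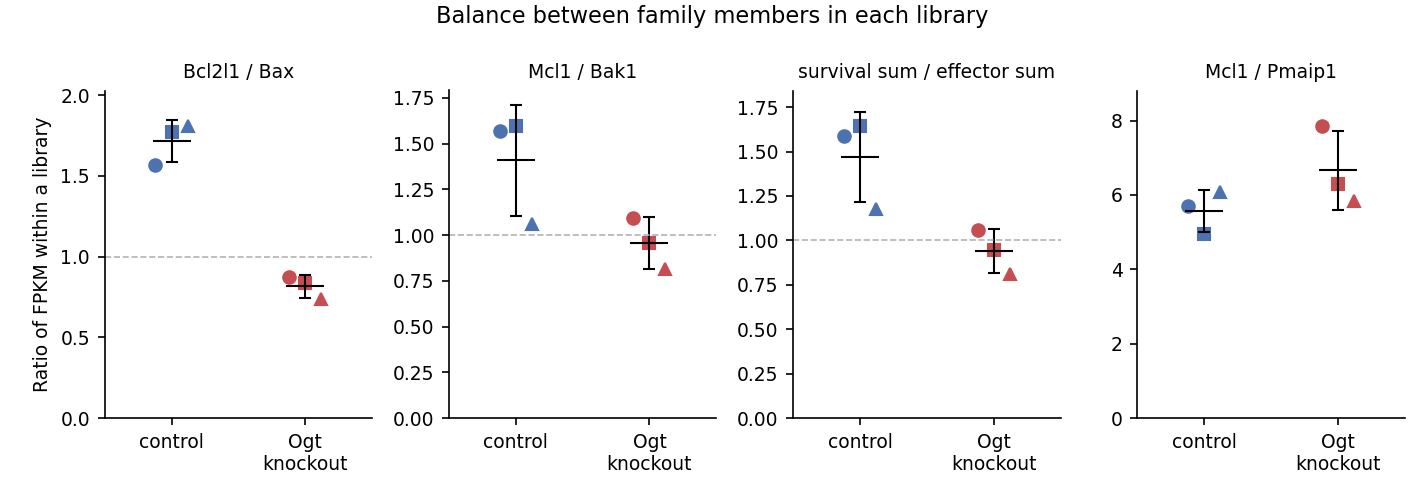
Ratios of FPKM values within each library for 4 pairings (y axes from 0), controls in blue and knockouts in red, circles, squares and triangles for replicates 1 to 3, black bars for mean ± SD. Bcl2l1 over Bax lies above the dashed line at 1 in all 3 controls and below it in all 3 knockouts, whereas Mcl1 over Pmaip1 overlaps between groups.

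Control 2 was the highest control for 8 of the 10 members and for all 4 that fell. Of all tested genes 32.5% had their highest control there, and of all genes called lower 36.8%. That library was lowest in the proliferation list and highest in the T cell list, and the part of those differences in the members' levels was not tested. Without control 2 the calls of Bcl2l1 and Pmaip1 held (adjusted p = 0.0312 and 0.0272), and those of Mcl1 and Bcl2l11 were lost (0.104 and 0.140). Summed absorptive enterocyte genes were 29050, 39680 and 40180 CPM in the controls and 27670, 30300 and 26420 CPM in the knockouts. Of 14 tested genes in that list 3 were lower and 0 higher, with a median log2 fold change of -0.47. Proliferation genes summed to 891, 466 and 771 CPM in the controls and 952, 743 and 1052 CPM in the knockouts. Of those 16 genes 2 were higher and 0 lower, with a median of 0.45. Crypt stem cell genes summed to 306 to 569 CPM against 334 to 595 CPM. Tuft cell genes fell from between 301 and 333 CPM to between 136 and 156 CPM in sum, with 10 of 13 tested genes lower. Paneth cell genes summed to between 2791 and 3636 CPM in control and between 4299 and 7402 CPM in knockout libraries, yet of 12 tested genes none was called higher and 2 were called lower, with a median log2 fold change of -0.11. The sums of goblet (4905 to 16200 CPM), enteroendocrine (222 to 319 CPM), B and plasma (1292 to 4126 CPM), myeloid (239 to 326 CPM) and stromal, muscle and endothelial genes (1109 to 2223 CPM) overlapped between the groups. No list of other cells had a marker at 3 counts or fewer in every library. The part of any of these cells in the members' changes was not tested.

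The counts in this and the following lists stand beside a share of 18.7% called over all tested genes (9.37% lower, 9.33% higher). Several counts are near that share, and no list was tested as a set. Of 15 other BCL2 family genes 12 were tested, 2 fell and none rose, with a median log2 fold change of -0.26. Bnip3, an atypical BH3 protein of mitochondrial clearance, stood at 25.4, 30.9 and 27.9 CPM in the controls and at 13.4, 14.6 and 13.1 CPM in the knockouts (-1.03 ± 0.13, edgeR adjusted p = 0.00301). Bcl2l2, which encodes the survival protein BCL-W, fell from 47.4 ± 8.30 to 33.9 ± 1.29 CPM (-0.48 ± 0.14, edgeR adjusted p = 0.0464). Leaving out control 2 or 3 or any knockout ended the Bcl2l2 call (adjusted p from 0.107 to 0.145), and its estimated counts were not whole in 4 libraries. Bnip3l, a relative of Bnip3, stood at -0.42 ± 0.13 and the abundant Bcl2l15 at -0.25 ± 0.18, and neither passed the test. Bcl2l10 and Hrk had 3 counts or fewer in every library.

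Downstream of the mitochondria, 1 of 15 genes of the apoptosome, the caspases and their partners rose and none fell (median 0.18). It was Htra2, a mitochondrial protease that can be released during apoptosis, at 9.98, 9.88 and 10.6 CPM in the controls and 23.7, 20.6 and 20.3 CPM in the knockouts (1.08 ± 0.13, edgeR adjusted p = 0.00288). All 6 of its estimated counts were fractional, and the cause was not tested. Dffb, the apoptotic nuclease (0.57 ± 0.19), Casp2 (-0.48 ± 0.17) and Cycs, which encodes cytochrome c (-0.16 ± 0.16), did not pass the test. With library size alone as the scaling, 5 of these 15 genes passed.

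Of 9 inhibitor of apoptosis genes 3 fell and 1 rose (median -0.29). Naip2 fell from 141 ± 4.17 to 79.8 ± 9.55 CPM (-0.82 ± 0.11, edgeR adjusted p = 0.00381) and Naip5 from 326 ± 44.6 to 208 ± 27.4 CPM (-0.65 ± 0.15, adjusted p = 0.0205). Both encode receptors of the NAIP inflammasome, a role apart from caspase inhibition. Naip6, a similar gene with the highest mean CPM of the list over all 6 libraries (but not over the controls, where Naip1 and Naip5 were higher), stood at 0.07 ± 0.20 and changed sign without control 1 (-0.034) or knockout 3 (-0.055). Counts of these 3 Naip genes were fractional in all 6 libraries, and the split between them is uncertain. Birc2, which encodes cIAP1, fell (-0.39 ± 0.10, edgeR adjusted p = 0.0305), and Birc5, which encodes survivin, a mitotic protein, rose (0.66 ± 0.18, adjusted p = 0.0350). The Birc2 call was lost on leaving out any of the 6 libraries (largest adjusted p 0.113). Birc5 lost its call without control 2, control 3 or any knockout (largest 0.117), and Naip5 without control 2, control 3, knockout 2 or knockout 3 (largest 0.0792).

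Among 17 transcription factors and regulators known to act on family genes, 15 were tested, 3 fell and none rose (median -0.22). Foxo3, a factor known to activate Bcl2l11 and Bbc3, stood at 139, 121 and 150 CPM in the controls and at 74.1, 74.9 and 60.3 CPM in the knockouts (-0.97 ± 0.13, edgeR adjusted p = 0.00362). Foxo4 fell from 20.6 ± 2.48 to 14.4 ± 0.798 CPM (-0.52 ± 0.14, adjusted p = 0.0368) and Jun from 116 ± 28.3 to 66.8 ± 8.37 CPM (-0.80 ± 0.19, adjusted p = 0.0234). For Atf4, a stress response factor, the change of -0.42 ± 0.15 missed the threshold. Without 1 library the calls of Foxo4 (any of the 6; adjusted p up to 0.131) and Jun (control 2 or 3 or any knockout; up to 0.0943) were lost. Trp63 and Trp73 had 3 counts or fewer in every library.

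Of 16 other p53 target genes 3 rose and 1 fell (median 0.10), while Bax, Bbc3 and Pmaip1, which are p53 targets as well, have the values given above. Tnfrsf10b, a death receptor for TRAIL, rose from 4.67 ± 1.58 to 12.4 ± 2.73 CPM (1.41 ± 0.28, edgeR adjusted p = 0.0136). Eda2r, another receptor of that family, rose from 0.241 ± 0.122 to 1.19 ± 0.380 CPM (2.29 ± 0.51, adjusted p = 0.0197), and Aen, a nuclease, rose too (0.75 ± 0.18, adjusted p = 0.0248). Sesn1, which restrains mTORC1, fell from 123 ± 9.03 to 84.8 ± 4.21 CPM (-0.53 ± 0.10, adjusted p = 0.0113). Perp, which had the highest mean CPM of the list over all 6 libraries, though Cdkn1a was higher in knockout, stood at -0.30 ± 0.18 and did not pass. Eda2r had only 2 to 6 counts per control library, and its call was lost without control 2, control 3, knockout 2 or knockout 3 (largest adjusted p 0.0849). The Aen call was lost without control 2, control 3, knockout 1 or knockout 3 (largest 0.0989), and that of Sesn1 without knockout 2 or knockout 3 (largest 0.0547).

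Of 19 BAD kinases and 14-3-3 genes 3 rose and 3 fell (median -0.04). Prkaca, the catalytic subunit of protein kinase A, fell from 47.7 ± 5.14 to 26.9 ± 2.02 CPM (-0.83 ± 0.12, edgeR adjusted p = 0.00484). Rps6kb1, the S6 kinase, rose from 29.9 ± 6.06 to 52.6 ± 6.12 CPM (0.82 ± 0.16, adjusted p = 0.0139), and Rps6ka1 rose from 212 ± 8.80 to 294 ± 12.5 CPM (0.47 ± 0.10, adjusted p = 0.0159). Ywhag also rose (0.52 ± 0.11, adjusted p = 0.0160), Pim1 (-0.57 ± 0.15, adjusted p = 0.0309) and Ywhah (-0.40 ± 0.12, adjusted p = 0.0495) fell, and the abundant Ywhaz stood at -0.12 ± 0.14. Of 11 tested genes of MCL1 turnover 2 fell and none rose (median -0.07): Dusp6, a phosphatase of ERK (-0.92 ± 0.24, adjusted p = 0.0396), and March5, a mitochondrial ubiquitin ligase (-0.60 ± 0.17, adjusted p = 0.0474). Gsk3b (-0.27 ± 0.11) and the deubiquitinase gene Usp9x (0.09 ± 0.10) did not pass the test. Without 1 library the calls of Rps6kb1 (control 3 or knockout 3; adjusted p up to 0.0628), Rps6ka1 (knockout 2; 0.0689), Ywhag (control 3 or knockout 2 or 3; up to 0.0653), Pim1 and Dusp6 (control 2 or 3 or any knockout; up to 0.117 and 0.121), Ywhah (all but knockout 1; up to 0.165) and March5 (control 2 or 3 or knockout 1 or 3; up to 0.158) were lost.

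Of 14 genes of the outer membrane and of mitochondrial shape that bear on BAX and BAK, 1 rose and 1 fell (median -0.09). Mff, a receptor for the fission GTPase DRP1, stood at 61.3, 63.3 and 62.4 CPM in the controls and at 41.0, 42.5 and 43.3 CPM in the knockouts (-0.56 ± 0.09, edgeR adjusted p = 0.00571). Timm8b, an import chaperone of the intermembrane space, rose from 28.0 ± 2.07 to 45.2 ± 1.80 CPM (0.69 ± 0.11, adjusted p = 0.00550). Dnm1l, which encodes DRP1, stood at -0.40 ± 0.14 without passing the test, though it passed without control 2 (adjusted p = 0.0448), and the abundant Tmbim6 stood at -0.21 ± 0.15.

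**Figure D4:**
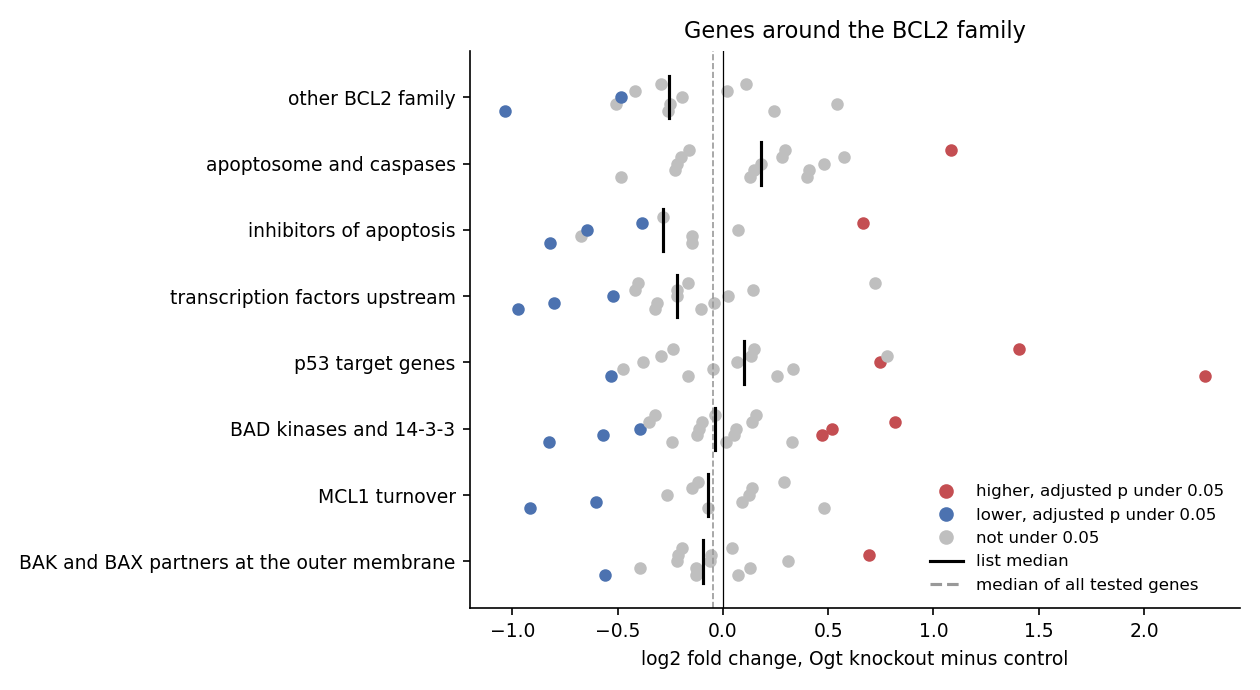
Log2 fold change, knockout minus control, of every tested gene in 8 lists around the family (x axis), red for higher and blue for lower with an adjusted p under 0.05, black bars for list medians. List medians lie between -0.29 and 0.18, and Eda2r at 2.29 is the farthest point. Over all tested genes 9.37% were called lower and 9.33% higher.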

How the data were processed

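RNA of ileal epithelial cells was sequenced for 3 control and 3 knockout libraries, using Trizol extraction and NEBNext Ultra RNA libraries (a kit without strand marking), per the labels' protocols. The authors deposited estimated counts (expected counts) and FPKM values for 22274 genes, per the file headers, and the submitters' processing notes name GRCm39 and mm39. Aligner, counter and annotation: not given in the sources used here. In each library 7.68% to 8.09% of the 22274 genes had a fractional estimated count (tolerance 0.001), and the counts were rounded.

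Genes were named by Ensembl ID from GENCODE M21 (22219 IDs) or the deposited table (43 IDs). They were filtered with filterByExpr (minimum count 10, minimum total 15), scaled by TMM and tested with the edgeR 4.0.16 quasi-likelihood test (R 4.3.3, robust, group only) at a Benjamini-Hochberg adjusted p of 0.05, and the SE was taken from the F statistic. No 2 libraries agreed within sampling noise (mean chi-square per gene at least 19.5). On counts simulated for the 14005 genes of this comparison, the test found 55 of the 100 genes given a 2-fold change. It found 84 of the 100 given a 4-fold change, with 9 false calls, so a smaller change can be missed. No other gene was changed in the simulation, whereas 2619 were called in the data, so these recovery rates need not hold for the reported fit. The members and lists were chosen with earlier results of these data known. Named genes are all members, Ogt and, per list, the 3 lowest adjusted p-values plus the gene with the highest mean CPM. Birc5, Naip1, Aen, Ywhag, Pim1, Ywhah and genes named for a count floor were added after their values were seen. Alternatives were DESeq2 1.42.0, limma 3.58.1 (voom, and log2(FPKM + 0.1) or log2(FPKM + 1) on genes reaching 1 FPKM in 3 or more libraries), other scalings and count filters, a replicate block and each library left out.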

Additional observations from a re-analysis of the deposited data

How the results depend on the processing

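Of the 160 member values under other settings 6 changed sign, for Bak1 and Bbc3 only, and none of those passed a test in any setting: Bak1 with library size alone (0.11), without control 3 (0.068) and on both FPKM scales (0.15 and 0.14), and Bbc3 on both FPKM scales (0.070 and 0.052). Leaving out 1 library gave -0.045 to 0.068 for Bak1. Among other named genes the sign turned for Gsk3b on the FPKM scales (0.30 and 0.29), Naip6 without control 1 or knockout 3 (range over single libraries left out -0.055 to 0.35) and Ywhaz with library size alone (0.0052). Over all tested genes the median change was -0.05 with TMM and 0.09 with library size alone, where 1307 higher and 1312 lower genes became 2045 and 859. On the FPKM scales the split was 1906 to 724 and 1946 to 738. Under each of these 3 settings 2 members were lower (Bcl2l1 and Pmaip1) and 1 higher (Bax), against 4 and 0. Leaving out 1 library gave between 1009 and 3304 genes called over all genes, against 2619, and between 1 and 3 members called, all lower. The total without control 2 was 1683, without control 3 1198, and without knockouts 1 to 3 it was 1654, 1134 and 1009. In the same settings the list counts ranged from 1 to 2 for other BCL2 family genes, from 1 to 2 for the apoptosome and caspases, from 1 to 3 for inhibitors of apoptosis, from 1 to 2 for upstream factors, from 1 to 4 for p53 targets, from 2 to 6 for BAD kinases and 14-3-3 genes, from 0 to 2 for MCL1 turnover and from 2 to 3 for outer membrane partners. Library size alone, limma voom and both FPKM scales gave 1 other BCL2 family gene in place of 2. The apoptosome and caspase list had 5 calls with library size alone, 4 on either FPKM scale, and 2 with DESeq2 or the replicate block. MCL1 turnover had 1 call with library size alone and 0 on either FPKM scale. Of single calls in the lists, library size alone also ended those of Bcl2l2 (adjusted p = 0.107), Birc2 (0.127), Foxo4 (0.0945) and March5 (0.0894). The same 4 and Dusp6 were lost on both FPKM scales (0.0508 to 0.165), and Bcl2l2 with limma voom (0.0558). The BAD kinase and 14-3-3 list had 5 calls in place of 6 on both FPKM scales, with DESeq2-style size factors and without a count filter. It had 7 with upper quartile factors, DESeq2 or the replicate block. Birc5, Aen, Ywhag, Pim1 and Ywhah were followed singly only with libraries left out. Dffb passed with library size alone (0.0297), DESeq2 (0.0476) and both FPKM scales (0.0259 and 0.0257). The cause of these shifts was not tested.

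Same-numbered libraries deviated together with correlations of 0.27, 0.25 and 0.08, and each library correlated best with its own number, but the labels give no pairing. For control 3 the margin was small, at 0.084 with knockout 3 against 0.068 with knockout 2. With the replicate number as a block, 3402 genes were called and the 4 members that fell were called again (adjusted p = 0.0122 for Bcl2l1, 0.0206 for Mcl1, 0.00752 for Pmaip1 and 0.0343 for Bcl2l11). Of the other named genes, Dnm1l (0.0475), Bnip3l (0.0266) and Casp2 (0.0403) passed under the block and Dusp6 did not (0.0580). Among the members Bbc3 had the fewest counts, 20 to 36 per library.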

Other observations

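The deposited counts and FPKM values together imply the transcript length that was used for each gene in each library. After division by the library's median factor, the implied length of Bcl2l1 was 2243, 2182 and 2229 bases in the controls and 2443, 2319 and 2292 bases in the knockouts. The groups did not overlap, with a mean 6.01% longer in knockout, where the median absolute change over 11753 genes above 1 FPKM was 0.563% and 12.5% of those genes did not overlap. The implied length of Bbc3 was 1813, 1822 and 1405 bases in the controls and 972, 1808 and 909 bases in the knockouts. Mcl1, by contrast, had an implied length between 3405 and 3418 bases in all 6 libraries. Bak1 ranged from 1664 to 1921 bases and Bcl2l11 from 4171 to 4675 bases, with overlap between the groups. These lengths are derived from rounded values and were not tested.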
